A study of Mus musculus with 2 samples.

Results

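The nuclear genes of the mitochondrial respiratory chain and ATP synthase were examined in single leukocytes from mouse aorta. They were taken by name: every gene whose symbol starts with Ndufa, Ndufb, Ndufc, Ndufs, Ndufv, Uqcr, Cox4 to Cox8 or Atp5, and Sdha to Sdhd, without the Ndufaf assembly factors, provided that it had at least 10 UMIs (unique molecular identifiers, each counting 1 captured RNA molecule) over both libraries. Of 85 genes with such symbols, 80 met the minimum, among 27998 genes in the files and 12172 with as many UMIs. They comprised 37 genes of complex I, 4 of complex II, 8 of complex III, 14 of complex IV and 17 of complex V, the ATP synthase. The 5 that fell short were Ndufa4l2, Cox7b2, Cox8b and Cox8c, each with 0 UMIs, and Cox4i2 with 2. The members lie on 19 chromosomes, 3 of them on X. No measured level chose them beyond the minimum.

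The study compared CD45+ leukocytes sorted as viable from atherosclerotic aortas of mice fed a chow diet or a WD, with WD as the labels write it. Both groups were C57BL6/J ApoE-/- mice, which lack apolipoprotein E and accumulate cholesterol-rich lipoproteins, so every comparison is between diets on that mutant background and none is with a wild-type animal. Neither the age of the mice nor the length of feeding is stated in the labels. Each diet is represented by the combined cells of 10 aortas, of which up to 10000 were loaded into 1 droplet library made with version 2 of the 10x Genomics 3' kit. With 1 library per diet there was no replicate, and diet cannot be told apart from library, pool or preparation: differences between diets are given as values with 95% intervals that cover counting error only, and no test was made.

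The respiratory chain passes electrons from NADH and succinate to oxygen and stores the energy as a proton gradient across the inner mitochondrial membrane. Complex I oxidises NADH, complex II oxidises succinate and is also the succinate dehydrogenase of the citrate cycle, complex III passes electrons to cytochrome c, complex IV reduces oxygen, and complex V uses the gradient to make ATP. Most subunits are encoded in the nucleus and imported, but mitochondrial DNA encodes the catalytic core of complex IV and cytochrome b of complex III. It also encodes a proton-pumping part of complex I and a few subunits of complex V, whereas complex II is wholly nuclear. Inflammatory macrophages are known for leaning on glycolysis, and resting lymphocytes and alternatively activated macrophages for oxidising pyruvate and fatty acids. The naming rule also takes in a few genes that are not structural subunits of the complex in their name. Cox7a2l is known from work on supercomplexes of complexes III and IV, which were not examined in these mice. Atp5sl takes part in complex I assembly, Atp5s encodes a coupling factor, and Ndufa4 is now counted as a subunit of complex IV. They were kept where the rule puts them.

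The chow diet library held 909 barcodes and 4608033 UMIs and the WD library 2077 barcodes and 8782901 UMIs. After 2 and 0 barcodes with under 200 genes, 11 and 16 with over 10% mitochondrial UMIs, and 3 and 2 predicted doublets were left out, 893 and 2059 cells remained, with medians of 3742 and 3185 UMIs. The predicted doublets were 0.330% and 0.0963% of the barcodes, below the 0.727% and 1.66% expected from their numbers, so unseen doublets remain possible. The libraries shared 3 barcode sequences. Clustering gave 20 groups of cells, and a group was named "X-like" for the type whose markers stood out most in it, where at least 3 were detected in 20% or more of its cells and no other type had more markers among its 10 leading genes. In T-like clusters 2 and 6 and thymocyte-like clusters 8 and 19 none of the 10 leading genes was a marker of the type. The named classes were B-like, T-like, gamma delta T-like, thymocyte-like, NK-like, ILC2-like (group 2 innate lymphoid cells), macrophage-like, monocyte-like, conventional dendritic-like and neutrophil-like cells. The last had 5 and 18 cells and was left out of comparisons between classes. Unnamed were cluster 10, led by Klra1, Klra7 and Klrc2, cluster 11, whose leading genes include Shmt1, Ung, Cdc6 and Chek1, genes of DNA synthesis and its checkpoints, and cluster 12, whose leading genes include Zbtb32 and Bhlhe41. The labels give aorta as the only tissue, yet Dntt, the terminal transferase of immature lymphocytes, had a UMI in over 90% of the cells of thymocyte-like clusters 5, 8 and 19 (93.8%, 99.2% and 100%) and in 98.8% of those of cluster 11. In B-like cluster 0 that share was 1.5%.

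Across all cells the members took 2.12% of the UMIs with chow diet (interval 2.11 to 2.14%) and 1.99% with WD (1.98 to 2.00%). Complex V made up 31.0% and 30.1% of these UMIs, complex IV 28.4% and 29.2%, complex I 27.9% in both libraries, complex III 10.7% and 10.9%, and complex II 2.01% and 1.85%. Levels below are UMIs per 1000000 UMIs of the same cells (CPM). Each UMI tags the 3' end of 1 molecule, so no division by transcript length was made. Cox4i1, the main form of complex IV subunit 4, had the most UMIs of all members, at 948 CPM with chow diet and 960 CPM with WD. It was followed in complex IV by Cox8a (764 and 746 CPM) and Cox7c (674 and 647 CPM). In complex V the catalytic beta subunit gene Atp5b stood at 758 and 645 CPM, Atp5l (subunit g) at 667 and 673 CPM and Atp5e (epsilon) at 648 and 602 CPM. Uqcrh, the hinge protein of complex III, had 728 and 732 CPM, Uqcrb 284 and 281 CPM, and Uqcrq 261 and 259 CPM. The accessory subunits Ndufa2 (361 and 358 CPM), Ndufa6 (347 and 335 CPM) and Ndufa13 (339 and 325 CPM) had the most UMIs in complex I. Complex II was carried by Sdhb, the iron-sulfur subunit (159 and 135 CPM), Sdha, the flavoprotein (106 and 95.4 CPM), and Sdhd, a membrane anchor (101 and 87.1 CPM). These 15 genes had most UMIs within their complex in both libraries pooled.

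Nuclear core subunits of complex I, which carry the flavin and the iron-sulfur clusters, had lower counts than its abundant accessory subunits. Ndufs8 and Ndufv2 stood at 108 CPM each with chow diet and at 106 and 111 CPM with WD, Ndufs7 at 99.9 and 93.8 CPM, Ndufs3 at 85.6 and 88.1 CPM, and Ndufv1, the NADH-binding subunit, at 65.4 and 57.4 CPM. Ndufs1, the large core subunit, stood at 24.4 and 22.9 CPM. These 6 were lower in B-like cells than in cluster 11 in both libraries. Ndufv1 for example had 34.6 and 48.4 CPM in B-like cells against 149 and 107 CPM in cluster 11, and Ndufs1 21.6 and 13.6 CPM against 49.7 and 31.7 CPM.

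The promoters of the members, many of which differed together between cell classes, were read from RefSeq windows of 300 bases, 250 before to 50 after the annotated start (GRCm38.p6), which 68 of the 80 members matched. All motifs were searched on both strands. The NRF1 motif, whose matches with 1 free central base are in capitals in the sequences shown, was in 16 of these 68 windows (23.5%), against 4.78% of the first windows of all 27025 genes listed. CCGGAAG, the core of ETS family sites such as those of GABP, was in 15 (22.1%) against 9.12%. AAGATGGCG, a YY1 motif, was in 7 (10.3%) against 1.49%, TGACGTCA, the cyclic AMP response element, in 4 (5.88%) against 1.88%, and TATAAA, a core promoter element, in 5 (7.35%) against 14.2%. NRF1 or ETS letters stood in 27 windows (39.7%), against 13% of all. The median ratio of observed to expected CpG was 0.825 in the members and 0.389 over all windows, so the windows also differ in base composition. NRF1 and GABP are known activators of respiratory chain genes. A match is a run of letters and not a site shown to be bound. As examples, 4 promoters that hold motifs and 1 that holds none are shown for the 150 bases before the start, 5' to 3' in the direction of transcription, with motif letters in capitals.
Ndufs6, chr13:73328483-73328632, minus strand: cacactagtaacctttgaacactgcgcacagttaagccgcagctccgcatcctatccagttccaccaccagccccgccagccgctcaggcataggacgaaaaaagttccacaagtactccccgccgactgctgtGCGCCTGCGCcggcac
Ndufa8, chr2:36049339-36049488, minus strand: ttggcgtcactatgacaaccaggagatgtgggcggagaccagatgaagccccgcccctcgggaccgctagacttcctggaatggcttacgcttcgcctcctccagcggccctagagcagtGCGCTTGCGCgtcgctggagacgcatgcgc
Sdhd, chr9:50603850-50603999, minus strand: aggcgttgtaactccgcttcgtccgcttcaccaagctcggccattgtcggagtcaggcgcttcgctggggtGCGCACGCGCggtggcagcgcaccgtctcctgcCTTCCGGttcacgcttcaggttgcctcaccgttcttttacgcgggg
Cox6a1, chr5:115348959-115349108, minus strand: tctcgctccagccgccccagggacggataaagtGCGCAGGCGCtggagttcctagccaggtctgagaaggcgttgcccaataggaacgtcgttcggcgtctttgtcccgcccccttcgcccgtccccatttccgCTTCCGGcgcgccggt
Cox6b2, chr7:4753095-4753244, minus strand: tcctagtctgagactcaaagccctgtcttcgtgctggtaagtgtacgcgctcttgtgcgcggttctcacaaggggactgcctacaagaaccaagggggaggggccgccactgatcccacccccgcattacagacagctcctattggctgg
The capitals mark an NRF1 motif in Ndufs6 and Ndufa8, an NRF1 and then an ETS motif in Sdhd and Cox6a1, and nothing in Cox6b2. A further NRF1 motif of Cox6a1 begins 162 bases before its start, outside the stretch shown. Ndufs6, Ndufa8 and Sdhd were among the genes that differed most between cell classes, Cox6a1 is the widely expressed form of subunit 6A, and Cox6b2 is a form of subunit 6B known from testis.

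The share of UMIs on the chain differed by more than 2-fold between the highest and the lowest cell class, beyond counting error. Cluster 11 was highest in both libraries, with 3.39% (3.34 to 3.45%) with chow diet and 3.47% (3.42 to 3.52%) with WD. Thymocyte-like cells followed with 2.93% and 2.86%, and gamma delta T-like cells had 2.36% and 2.30%. NK-like cells stood at 2.03% with chow diet and 2.41% with WD, from 18 and 30 cells. Conventional dendritic-like cells had 2.01% and 2.05%, T-like cells 1.88% and 1.89%, monocyte-like cells 1.83% and 2.10%, cluster 10 1.80% and 1.76%, and ILC2-like cells 1.75% and 1.68%. Cluster 12 had 1.58% and 1.87%. At the low end were macrophage-like cells with 1.49% (1.45 to 1.53%) and 1.6% (1.57 to 1.62%) and B-like cells with 1.42% (1.39 to 1.45%) and 1.45% (1.43 to 1.47%). The top 2 and the bottom 2 classes were the same in both libraries. Intervals of several neighbours in this order overlapped, those of macrophage-like and B-like cells with chow diet included, and the order in the middle differed between libraries.

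The difference held in single cells. The median cell of cluster 11 had 3.45% in both libraries, with quartiles of 3.20 and 3.67% for chow diet and 3.04 and 3.78% for WD. For B-like cells the medians were 1.33% and 1.42%, with quartiles of 1.18 and 1.55% and of 1.2 and 1.64%. Depth was not even across classes, with a median of 12560 and 9610.5 UMIs per cell in cluster 11 against 2710 and 2375 in B-like cells. In thymocyte-like cells the medians were 2683 and 3275 UMIs. Every cell was also thinned at random to 1000 UMIs. The mean share over cells was then 3.33% with chow diet and 3.60% with WD in cluster 11. In thymocyte-like cells it was 2.69% and 2.77%, and in B-like cells 1.44% and 1.43%. Beyond these values, the part of depth in the differences between classes was not tested. Within the thymocyte-like class, cluster 8, whose leading genes include Ube2c, Nusap1 and Ccnb1, known from mitosis, had 3.16% and 3.07% at median depths of 7635 and 6008.5 UMIs, whereas cluster 5, with Rag1 among its leading genes, had 2.52% and 2.51% at 1965 and 1681 UMIs, and cluster 19 had 2.39% and 2.18%. T-like clusters were lowest in cluster 1, with 1.57% and 1.64%, and highest in cluster 2, with 2.23% and 2.11%, and in cluster 17, with 2.17% and 2.18%.

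The choice of denominator moved the low end. Cytosolic ribosomal protein genes take a large and uneven share of UMIs in lymphocytes. Without them in the total, macrophage-like cells were lowest, with 1.83% and 1.91%, and B-like cells next with 2.24% and 2.31%. T-like cells, at 2.91% and 2.94%, then stood above conventional dendritic-like cells, at 2.72% in both libraries. Cluster 11, with 4.81% and 5.05%, and thymocyte-like cells, with 3.75% and 3.64%, stayed at the top. Leaving out mitochondrially encoded genes changed neither end of the order.

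**Figure D1:**
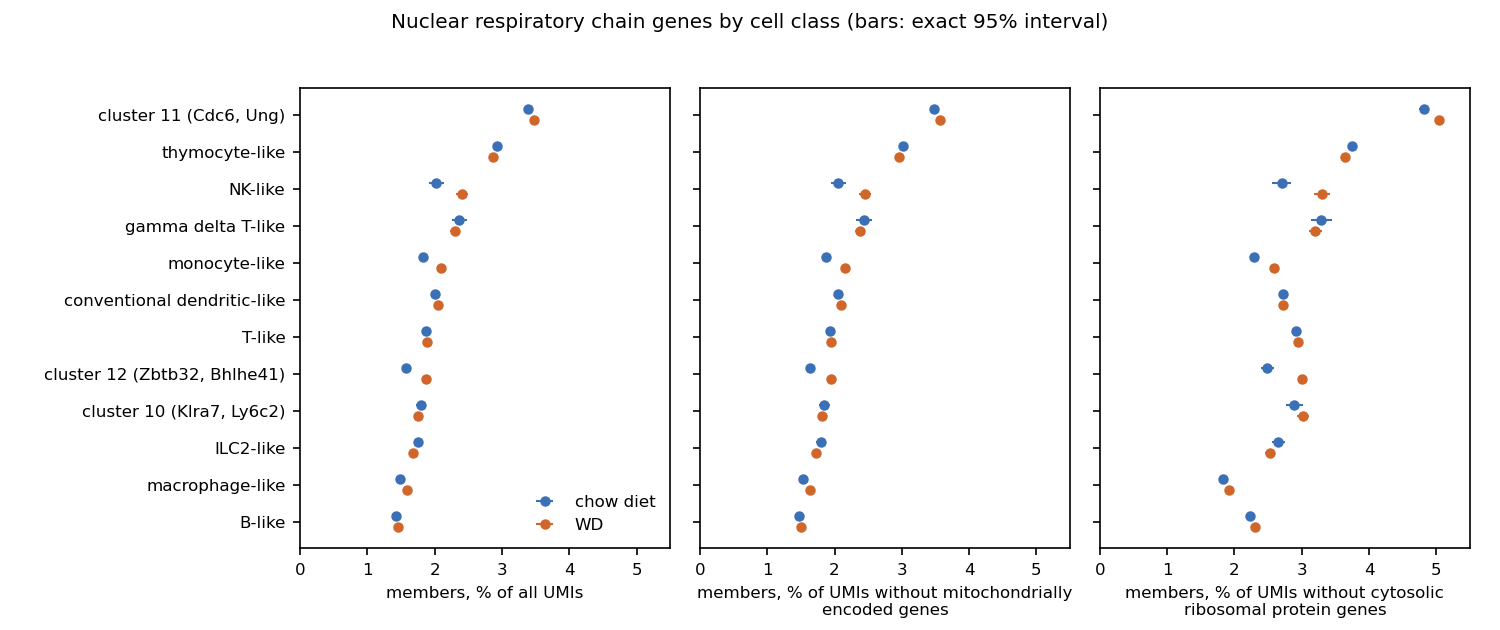
Share of UMIs on the 80 members in each cell class (rows, ordered by WD), as a percentage of all UMIs (left), of UMIs without mitochondrially encoded genes (middle) and without cytosolic ribosomal protein genes (right). Points are the chow diet and WD libraries and bars exact 95% binomial intervals; cluster 11 and thymocyte-like cells are highest in every panel, and macrophage-like cells move below B-like cells in the right panel.

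Single members were then set against all other cells of the same library, as a description, since the clusters were built from the same cells. With at least 30 UMIs in each library, 77 members could be read. Cluster 11 held the highest CPM of any class for 52 of 77 with chow diet and 51 with WD, while it did so for 17.2% and 16.8% of all genes measured. B-like cells held the lowest for 26 of 75 members with a single lowest class with chow diet and 39 of 77 with WD, and for 8.12% and 9.99% of all such genes. In cluster 11, 26 members were at least 2-fold above the other cells in both libraries, against 13.6% of the 8510 genes measured, and none was as far below. Of the 26, 11 belong to complex I, 3 to complex II, 3 to complex III, 2 to complex IV and 7 to complex V. Ndufab1, the mitochondrial acyl carrier protein that is also a complex I subunit, stood at 365 and 352 CPM in cluster 11 against 110 CPM in the other cells of each library. Atp5b stood at 1740 and 1642 CPM against 662 and 584 CPM. Atp5g3, a gene of the ring-forming subunit c, had 601 and 554 CPM against 232 and 179 CPM. Ndufa12 had 340 and 360 CPM against 122 and 114 CPM, and Sdhd 191 and 259 CPM against 92.2 and 76.6 CPM. Of the 23 such genes with a promoter window 9 held the NRF1 motif (39.1%), and of the other 45 members 7 did (15.6%). The motif letters CCGGAAG were in 5 of 23 (21.7%) and 10 of 45 (22.2%). The share of windows with the NRF1 motif among all genes past 2-fold in cluster 11 was not computed. Whether the motif has a part in the difference was not tested.

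In thymocyte-like cells 7 members were past 2-fold above the other cells in both libraries, against 17.1% of all genes measured. Ndufs5 had 273 and 303 CPM against 111 and 116 CPM, Ndufb6 225 and 194 CPM against 96.3 and 90.6 CPM, and Ndufs6 257 and 250 CPM against 122 and 115 CPM. Ndufa8, Ndufs1, Atp5a1 (the alpha subunit of ATP synthase) and Cox6b2 were the others. The median log2 ratio over the members was 0.74 and 0.65. No member was past 2-fold higher in the other classes, where the share of all genes that were so was 3.37% in B-like, 3.4% in T-like, 4.23% in ILC2-like, 4.3% in conventional dendritic-like, 4.56% in NK-like, 4.72% in gamma delta T-like, 6.4% in monocyte-like and 8.82% in macrophage-like cells, 1.88% in cluster 10 and 1.52% in cluster 12.

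In B-like cells 8 members were at least 2-fold below the other cells in both libraries, against 22.7% of all genes measured. Uqcr11, a small complex III subunit, had 62.6 and 62.8 CPM in B-like cells against 219 and 212 CPM elsewhere. Ndufc2 had 66.9 and 71.9 CPM against 193 and 177 CPM, and Ndufs6 49.7 and 66.6 CPM against 155 and 135 CPM. The others were Ndufa8, Ndufb6, Sdhd, Atp5g3 and Cox6b2, the last with 0 and 1 UMI in B-like cells. Ndufa8, Ndufb6, Ndufs6, Sdhd, Atp5g3 and Uqcr11 stood both in this list and in that of cluster 11. Elsewhere a single member was past the fold: Sdhc, a membrane anchor of complex II, was below it in ILC2-like cells with 4 and 7 UMIs (20.8% of all genes lower), and Cox6b2 was below it in T-like cells (13.7%) and in cluster 12 (12.4%), each on at most 3 UMIs per library.

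**Figure D2:**
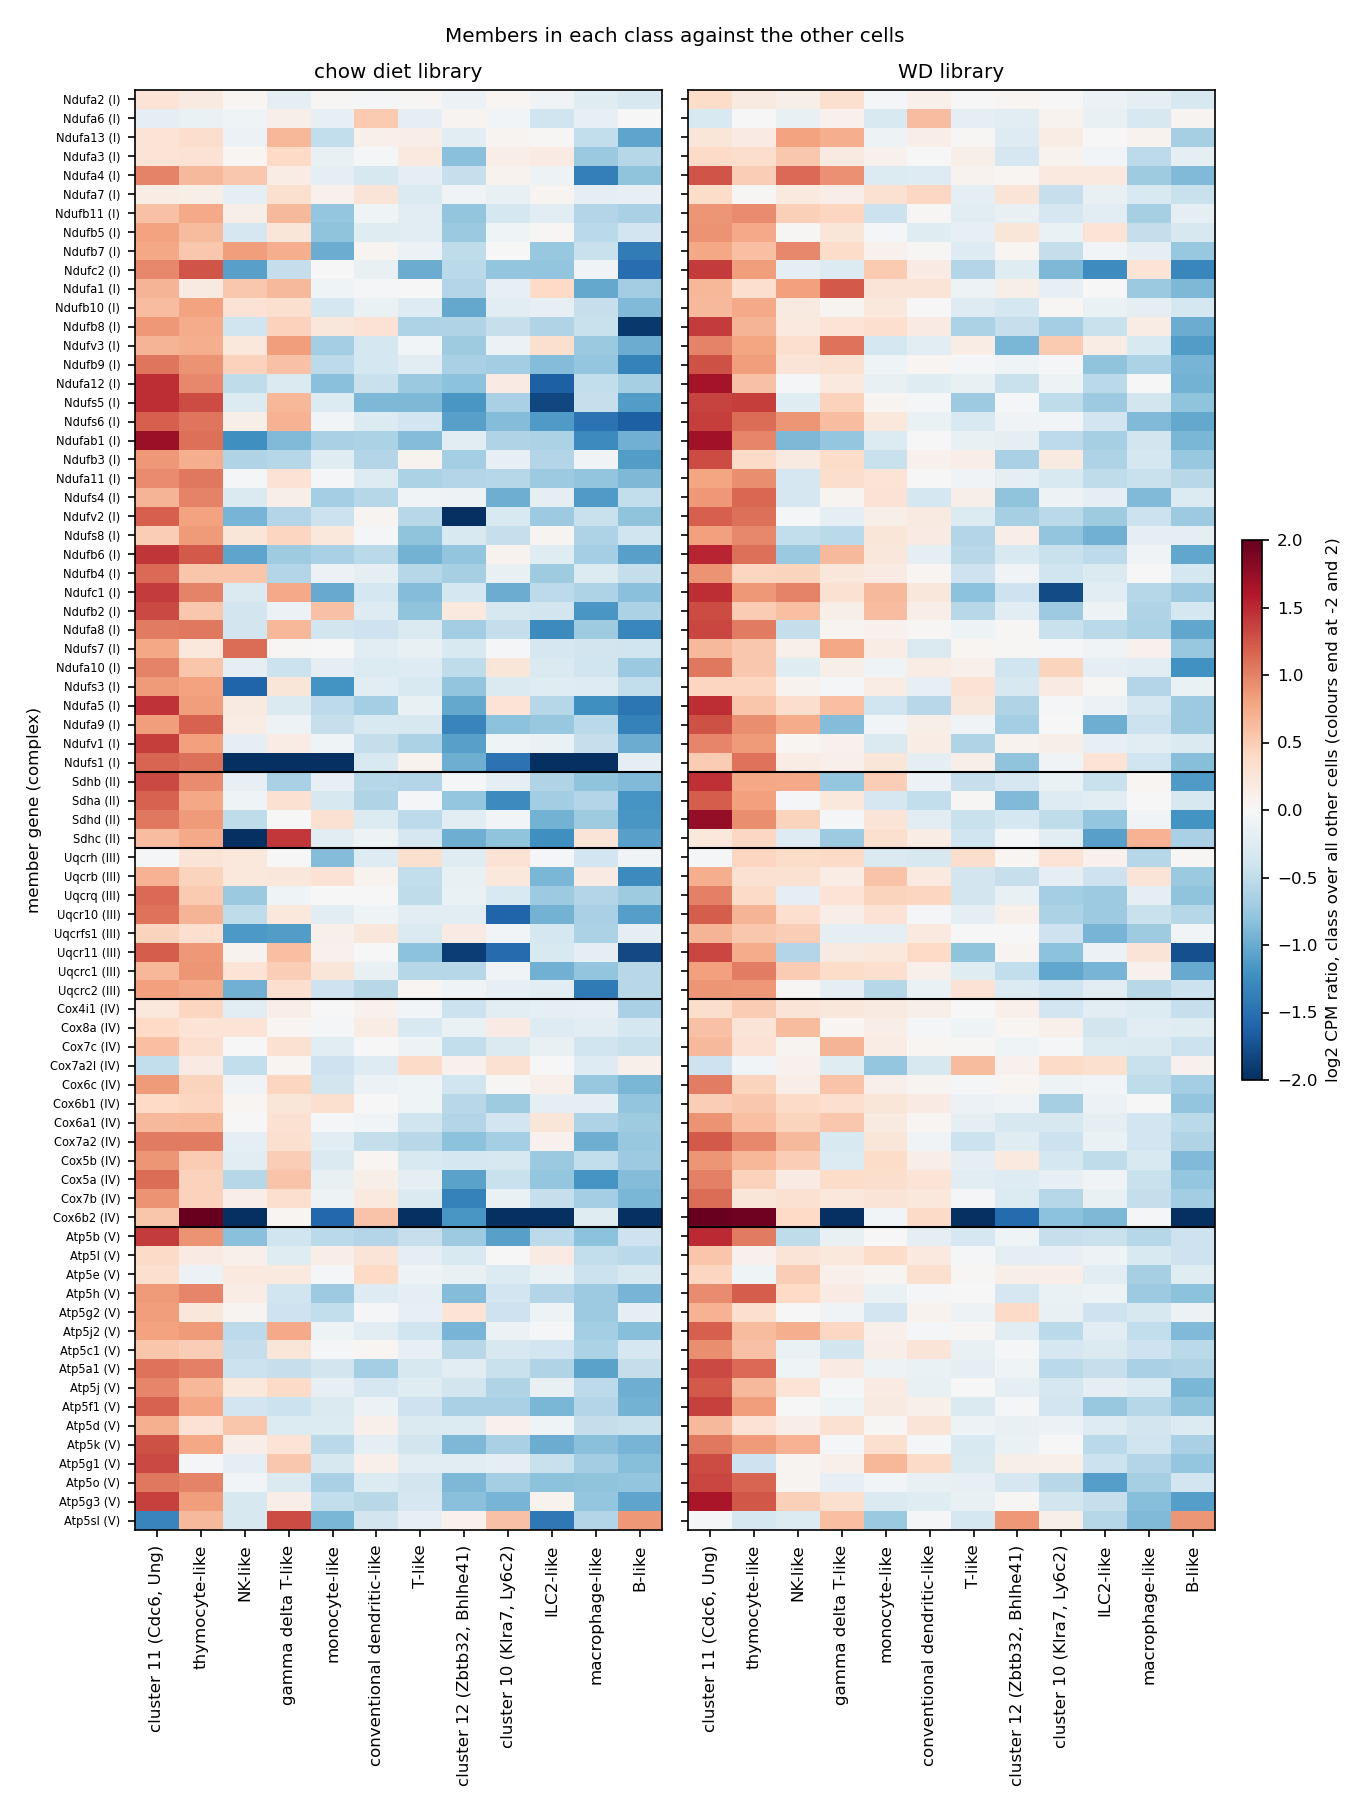
Log2 ratio of CPM in each class (columns) to all other cells of the same library, for 76 members (rows, by complex) in the chow diet library (left) and the WD library (right); red is higher in the class, colours end at -2 and 2, and deep blue can rest on few UMIs. The first 2 columns, cluster 11 and thymocyte-like cells, are red for most members in both panels, and the last, B-like cells, is blue for most.

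The chain also differed in its make-up, which was read as each gene's share of all member UMIs in the class. In cluster 11 complex V was 34.0% and 33.5% of the chain and complex IV 24.9% and 25.6%. In macrophage-like cells they were 28.6% and 27.4%, and 30.5% and 30.0%. Within the chain 7 of 77 members (9.09%) were at least 1.5-fold above the other cells in cluster 11 in both libraries and 4 (5.19%) below. Above were Ndufab1 (1.08% and 1.02% of the chain against 0.549% and 0.582%), Atp5b (5.13% and 4.73% against 3.31% and 3.08%), Atp5g3, Ndufa5, Ndufa12, Ndufb6 and Ndufc1. Below were Uqcrh (2.08% and 2.07% against 3.65% and 3.87%), Ndufa6 (0.907% and 0.788% against 1.75% and 1.79%), Cox7a2l and Atp5sl.

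Cox7a2l took a larger part of the chain in B-like and T-like cells. It was 4.64% and 4.53% of the chain in B-like cells and 4.05% and 4.63% in T-like cells, past 1.5-fold above their other cells, but 1.33% and 1.38% in cluster 11. As a share of the subunit 7A genes Cox7a2, Cox7a1 and Cox7a2l together, Cox7a2l took 72.4% and 72.3% in B-like cells and 72.0% and 75.6% in T-like cells. Cluster 10, with 74.8% and 74.9%, and cluster 12, with 73.9% and 68.3%, were similar, though not past 1.5-fold within the chain. The share was 70.2% and 61.7% in macrophage-like cells, 48.7% and 47.5% in thymocyte-like cells and 36.8% and 37.7% in cluster 11. In B-like cells 2 members were past 1.5-fold above (2.6%), the other being Atp5sl with 14 and 44 UMIs, and 3 below (3.9%), which were Uqcr11, Ndufc2 and Cox6b2. In T-like cells Cox7a2l was the 1 member above (1.3%) and 4 were below (5.19%): Ndufc1, Ndufs5, Uqcr11 and Cox6b2. Macrophage-like cells had 2 above (2.6%), Uqcrb with 2.12% and 2.06% of the chain against 1.30% and 1.34%, and Sdhc with 0.484% and 0.475% against 0.278% and 0.228%. In thymocyte-like cells 2 were above (2.6%), Ndufs5 and Cox6b2, and 2 below (2.6%), Atp5e with 2.07% and 1.98% against 3.34% and 3.15% and Atp5g1 with 0.874% and 0.711% against 1.33% and 1.41%.

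The nuclear genes Atp5g1, Atp5g2 and Atp5g3 encode the same mature subunit c of ATP synthase. Atp5g2 gave the largest share of their UMIs over all cells, 47.8% and 47.9%. Its share was 60.1% and 60.0% in B-like cells and 60.5% and 53.0% in cluster 12. Atp5g1 took 25.9% and 29.7% over all cells and Atp5g3 26.3% and 22.4%. The share of Atp5g3 was 34.4% and 37.1% in thymocyte-like cells and 30.3% and 30.2% in cluster 11, and that of Atp5g1 in the same classes 20.9% and 17.4%, and 29.1% and 33.2%. In monocyte-like cells Atp5g1 took 28.0% with chow diet (interval 21.2 to 35.7%, 44 UMIs) and 45.0% with WD (40.3 to 49.8%, 198 UMIs). These intervals did not overlap. In T-like cells the Atp5g1 shares were 25.8% and 27.6%, with overlapping intervals.

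**Figure D3:**
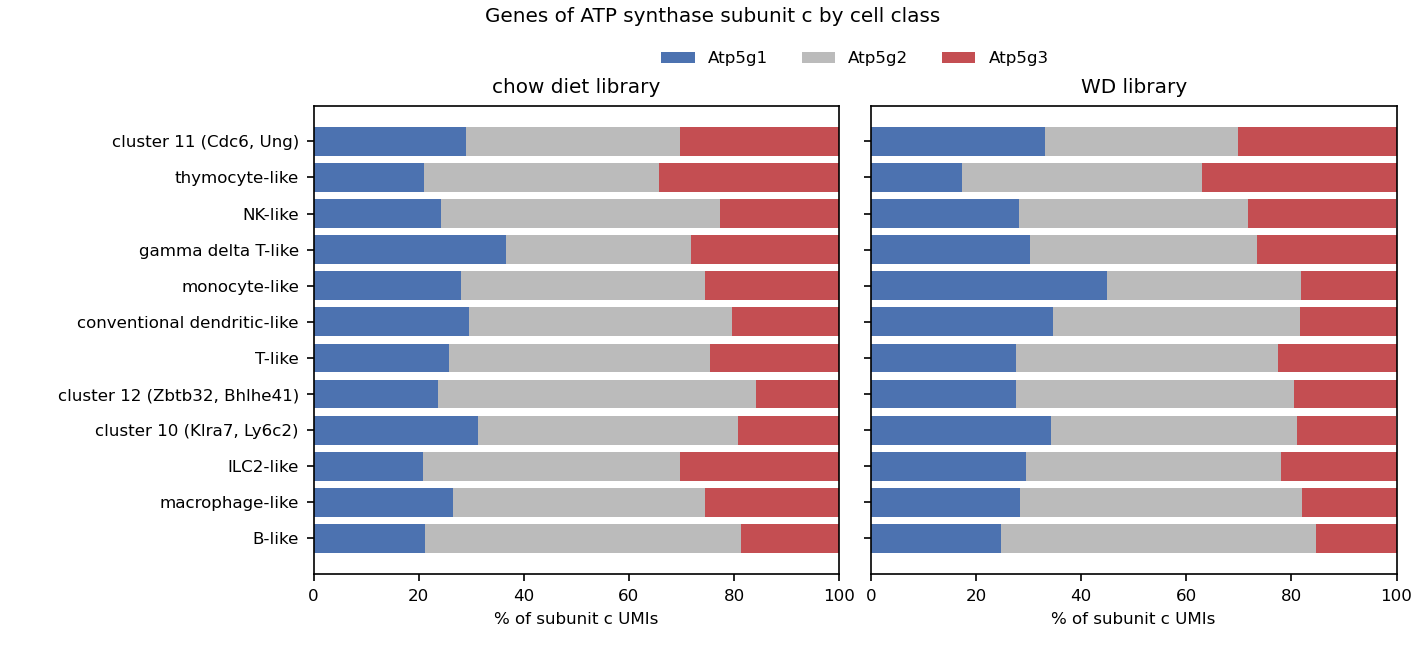
Share of the summed UMIs of Atp5g1, Atp5g2 and Atp5g3, the genes of ATP synthase subunit c, taken by each gene in each class (rows), with 1 panel per library. Atp5g2 is 60.1% and 60.0% in B-like cells, with cluster 12 at 60.5% in the chow diet library, and Atp5g1 in monocyte-like cells is 28.0% in the chow diet and 45.0% in the WD library.

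Alternative tissue forms of complex IV subunits were rare. Cox6a2, the heart and muscle form of subunit 6A, had 45 UMIs in 17 cells, 6 UMIs with chow diet and 39 with WD. Of the WD UMIs, 33 lay in 6 conventional dendritic-like cells, 17 of them in 1 single cell, and of the chow diet UMIs 5 lay in 4 thymocyte-like cells. In the 5 cells with at least 2 Cox6a2 UMIs, of which 1 was a thymocyte-like cell of the chow diet library, Bst2 and Ccr9 had a UMI in 5, Siglech, Tcf4, Runx2, Cd300c and Ly6d in 4 and Klk1 in 3, while Xcr1 had none. In the other 12 cells, each with 1 Cox6a2 UMI, these genes were rarer. Bst2 had a UMI in 6, Ccr9, Tcf4 and Ly6d in 4, Runx2 in 3, Siglech and Cd300c in 1, and Klk1 and Xcr1 in 0. Over all cells, Bst2 had a UMI in 38.3%, Ly6d in 36.3%, Tcf4 in 18.6% and Ccr9 in 13.8%. Runx2 had a UMI in 4.81%, Siglech in 1.19%, Cd300c in 0.576% and Klk1 in 0.237%. Siglech, Bst2, Ccr9 and Tcf4 are markers of plasmacytoid dendritic cells, for which Cox6a2 itself stood in the marker list, and no cluster was named for that type. Cox6b2 had 120 UMIs, 64 with chow diet and 56 with WD. Thymocyte-like cells held 29 and 13 of them, cluster 11 8 and 11, and conventional dendritic-like cells 16 and 12. Cox7a1, the muscle form of subunit 7A, had 35 UMIs, of which macrophage-like cells held 3 with chow diet and 11 with WD, conventional dendritic-like cells 5 and 2, and cluster 11 4 and 2. Cox4i2, Cox7b2, Cox8b, Cox8c and Ndufa4l2 gave at most 2 UMIs each. Of Cox8 UMIs, 3471 with chow diet and 6517 with WD were Cox8a, and a count of 0 allows Cox8b or Cox8c up to 0.106% and 0.0566% (upper ends of exact intervals).

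Mitochondrially encoded subunits did not follow the nuclear ones across classes. The 13 such genes (7 of complex I, 1 of complex III, 3 of complex IV and 2 of complex V) took 2.65% of UMIs with chow diet and 2.93% with WD over all cells. Per nuclear UMI there were 2.19 and 2.53 mitochondrially encoded UMIs in B-like cells and 2.29 and 2.07 in cluster 12. The ratio was 1.00 and 1.11 in thymocyte-like cells, 0.728 and 0.878 in NK-like cells and 0.685 and 0.733 in cluster 11. Over 19 clusters, the Pearson correlation of their share with that of the members was -0.11 with chow diet and -0.25 with WD. The mitochondrial ribosomal protein genes, which are nuclear, gave 0.97 and 0.95, citrate cycle genes 0.93 and 0.93, glycolysis genes 0.73 and 0.69 and cytosolic ribosomal protein genes -0.40 and -0.35. Clusters of a library share its preparation and the same total per cell, and the members correlated with median UMIs per cluster at 0.42 and 0.47, so these values describe the clusters and were not tested. In cluster 11 mitochondrial ribosomal protein genes took 0.862% and 0.884% of UMIs, against 0.293% and 0.331% in B-like cells.

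**Figure D4:**
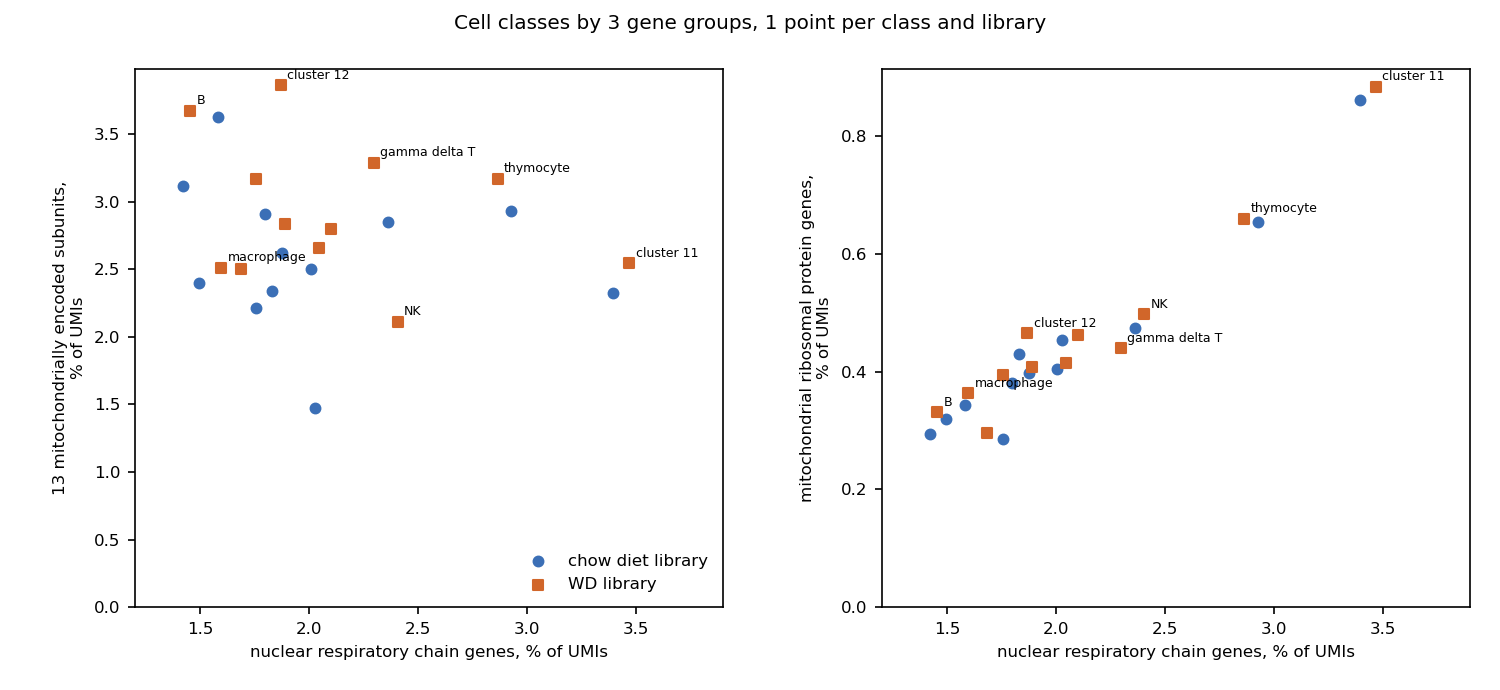
Each point is 1 cell class in 1 library, with the members' share of UMIs on the horizontal axis and, on the vertical axis, the share of the 13 mitochondrially encoded subunits (left) or of mitochondrial ribosomal protein genes (right). The left points show no common line, with B-like cells low in nuclear and high in mitochondrially encoded UMIs and cluster 11 the reverse, while the right points lie near 1 line.

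Over all cells the WD library had a lower share of UMIs on the chain, 1.99% against 2.12%, a ratio of 0.936 (0.929 to 0.943). All complexes were lower: complex I by a ratio of 0.935 (0.921 to 0.949), II 0.862 (0.815 to 0.913), III 0.959 (0.936 to 0.982), IV 0.964 (0.95 to 0.978) and V 0.908 (0.895 to 0.921). The makeup of the libraries differed. Thymocyte-like cells held 16.4% of the UMIs with chow diet and 7.14% with WD, cluster 11 8.86% and 5.78%, macrophage-like cells 7.31% and 12.8%, and B-like cells 10.2% and 15.1%. With each cluster given the same weight in both libraries, the shares were 2.00% and 2.05%, a ratio of 1.02, and the complex ratios were 1.03, 0.977, 1.04, 1.03 and 1.01 for I to V. Without the Dntt-rich clusters the ratio was 1.01. The lower share over all cells was therefore not seen at equal cluster weight, where 4 of 5 complexes turned to slightly higher. The mitochondrially encoded subunits had a ratio of 1.11 both over all cells and at equal weight.

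A gene was counted as higher with WD where its ratio was at least 25% above 1 and as lower where it was at least 20% below. Of 80 members, 1 was past that limit higher over all cells and 3 lower, against 12.2% and 22% of all genes measured. The higher one was Cox6a2 (1.32 and 4.47 CPM), 17 of whose 39 WD UMIs came from 1 cell. The lower ones were Cox6b2 with 14.1 and 6.41 CPM (ratio 0.455, 0.312 to 0.662), Atp5g3 with 265 and 201 CPM (0.758, 0.704 to 0.817) and Cox7a1 on 35 UMIs. All genes measured include any with at least 30 UMIs, whereas most members had over 1000, so counting error moves their ratios less. No share of genes with matched counts was computed, here or within classes. Among members with over 1000 UMIs, Atp5a1 (418 and 339 CPM, ratio 0.812) and Atp5o, the peripheral stalk subunit (265 and 218 CPM, 0.823), came next to Atp5g3. Atp5g3 and Atp5a1 were past 2-fold higher in cluster 11, and Cox6b2 and Atp5a1 in thymocyte-like cells, which held fewer of the WD UMIs. Atp5g3 was lower with WD in B-like cells (134 and 102 CPM), T-like cells (219 and 185 CPM) and cluster 11 (601 and 554 CPM). ILC2-like (279 and 148 CPM), conventional dendritic-like (191 and 174 CPM), gamma delta T-like (289 and 250 CPM) and macrophage-like cells (values below) were also lower. It was higher with WD in NK-like cells (213 and 278 CPM), cluster 10 (141 and 157 CPM) and cluster 12 (151 and 204 CPM). With chow diet these last classes had only 18, 26 and 23 cells, with 15, 16 and 24 Atp5g3 UMIs. They fall under the minimum of 30 cells for diet ratios, as do gamma delta T-like cells with 18. The part of the class makeup in these ratios was not tested. After Cox6a2, Atp5s (33 UMIs, ratio 1.2) and Atp5sl (17.8 and 20.3 CPM, 1.14, 0.869 to 1.5) had the highest ratios. The median log2 ratio of the members was -0.11, and of all genes measured -0.08.

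Within classes the picture differed. In monocyte-like cells, 35 with chow diet and 80 with WD, the chain took 1.83% (1.77 to 1.89%) and 2.10% (2.06 to 2.14%) of UMIs, a ratio of 1.15 (1.11 to 1.19). The median cell had 1.82% and 2.04%, with quartiles of 1.56 and 2.23% and of 1.75 and 2.32%, so the cells of the 2 libraries overlapped widely. All complexes were higher, with ratios of 1.16 (1.07 to 1.24) for I, 1.16 (1.04 to 1.30) for III, 1.13 (1.05 to 1.21) for IV and 1.16 (lower bound 1.09) for V, and for II 1.06 with an interval of 0.817 to 1.38. The mean over cells was 1.86% and 2.09%. With every cell thinned to 1000 UMIs in 1 random draw, that mean was 2.03% and 2.09%, and the ratio of summed shares was 1.03. Past the same limits, 20 of 74 members were higher and 3 lower, against 24.1% and 22.9% of all genes measured. The count of higher members is near the background, and the median log2 ratio was 0.19, against 0.02 over all genes.

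Atp5g1, a subunit c gene, had 210 CPM in monocyte-like cells with chow diet and 409 CPM with WD (ratio 1.95, 1.40 to 2.77). Ndufc1, an accessory complex I subunit, had 52.5 and 151 CPM (2.88, 1.52 to 6.02), from 11 and 73 UMIs, the highest ratio in the class. Uqcrh had 405 and 604 CPM (1.49, 1.17 to 1.92) and Cox5b, a nuclear regulatory subunit of complex IV, 315 and 457 CPM (1.45, 1.10 to 1.94). The lowest was Uqcrfs1, the Rieske iron-sulfur protein of complex III, with 234 and 172 CPM (0.735, 0.510 to 1.07). The 12 T cell markers summed to 396 CPM with chow diet and 126 CPM with WD in these cells, the 11 macrophage markers to 14287 and 15931 CPM, the 10 B cell markers, which include Cd74, to 16872 and 12463 CPM, and the 12 conventional dendritic markers, of which 8 had a UMI, to 5847 and 4646 CPM. Their part in the result was not tested.

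Macrophage-like cells, 45 and 203, had 1.49% and 1.6%, a ratio of 1.07 (1.04 to 1.10), and 1.02 after thinning. Complex I had a ratio of 1.11 (1.05 to 1.18) and complex II 1.31 (1.05 to 1.65), while the intervals of complexes III, IV and V included 1. Of 74 members 18 were past the limit higher and 2 lower, against 24.3% and 19.6% of all genes. The count of higher members is near the background. Among the 18 were 3 of the 4 complex II genes. Complex II made up 2.02% of the 4954 chain UMIs with chow diet, so its ratio rests on few UMIs. Sdhb had 93.4 and 139 CPM (1.49, 1.01 to 2.27). Cox5a had 154 and 251 CPM (1.64, 1.21 to 2.25) and Uqcrc1, a core protein of complex III, 99.4 and 156 CPM (1.57, 1.08 to 2.35). Ndufa5 had the highest ratio (39.2 and 69.5 CPM, 1.78, 0.98 to 3.48) and Atp5g3 the lowest (160 and 119 CPM, 0.743, 0.536 to 1.04). The median log2 ratio was 0.13 against 0.03 over all genes, and cytosolic ribosomal protein genes, a large part of the total, had a median of -0.15. The macrophage markers summed to 32125 and 34203 CPM and the monocyte markers to 16566 and 15608 CPM. Their part in the result was not tested.

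T-like cells, 262 and 543, showed the smallest difference among the large classes. The share was 1.88% and 1.89%, a ratio of 1.01 (0.989 to 1.03). Past the limits, 3 of 76 members were higher (Ndufs3, 72.1 and 103 CPM; Ndufab1, 80.3 and 114 CPM; Ndufa12, 92.5 and 118 CPM) and 2 lower (among them Sdhc, 50.8 and 39.9 CPM), against 16.9% and 17.8% of all genes measured. After thinning to 1000 UMIs, which leaves fewer UMIs per gene, 15 members were higher. In B-like cells, 147 and 502, the share was 1.42% and 1.45%, a ratio of 1.02 (0.995 to 1.05). There 13 of 75 members were higher and 8 lower, against 17.9% and 19.8% of all genes measured. The count of higher members is near the background. Complex I had a ratio of 1.07 (1.01 to 1.13) there and held 10 of the 13, Ndufb8 highest with 47.5 and 88.5 CPM (1.86, 1.17 to 3.09). Complex V had 0.962 (0.915 to 1.01), and Atp5a1 had 309 and 235 CPM (0.762, 0.623 to 0.936). The lowest ratio was that of Uqcrc1, 117 and 79.5 CPM (0.681, 0.486 to 0.964).

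Thymocyte-like cells, 154 and 149, had 2.93% and 2.86%, a ratio of 0.979 (0.960 to 0.999), and a mean over cells of 2.66% and 2.70%, which is in the other direction. Cluster 11 had 3.39% and 3.47% (ratio 1.02), conventional dendritic-like cells 2.01% and 2.05% (1.02) and ILC2-like cells 1.75% and 1.68% (0.960, 0.916 to 1.01). In conventional dendritic-like cells complex I had a ratio of 1.05 (1.01 to 1.09) and complex IV 0.998. Among single genes the highest ratios were those of Ndufs5 in conventional dendritic-like cells (80.6 and 126 CPM, 1.56, 1.18 to 2.09), beside Cox6a2 with 0 and 33 UMIs, Ndufv2 in thymocyte-like cells (168 and 220 CPM, 1.31, 1.02 to 1.68) and Ndufb8 in cluster 11 (288 and 392 CPM, 1.36, 1.08 to 1.73). At the low end stood Uqcrfs1 in conventional dendritic-like cells (248 and 216 CPM, 0.873), Ndufs1 in cluster 11 (49.7 and 31.7 CPM, 0.638, 0.309 to 1.30) and Ndufs8 in ILC2-like cells (113 and 55.0 CPM, 0.487, 0.230 to 1.03). NK-like cells and cluster 12 had ratios of 1.19 (1.11 to 1.27) and 1.18 (1.13 to 1.24), but only 18 and 23 cells with chow diet. Mast cell or basophil markers summed to 99.6 CPM with chow diet and 1392 CPM with WD in ILC2-like cells. Endothelial markers summed to 19.9 and 282 CPM there, and ILC2 markers to 9686 and 9581 CPM. The part of these in the ILC2-like ratios was not tested.

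**Figure D5:**
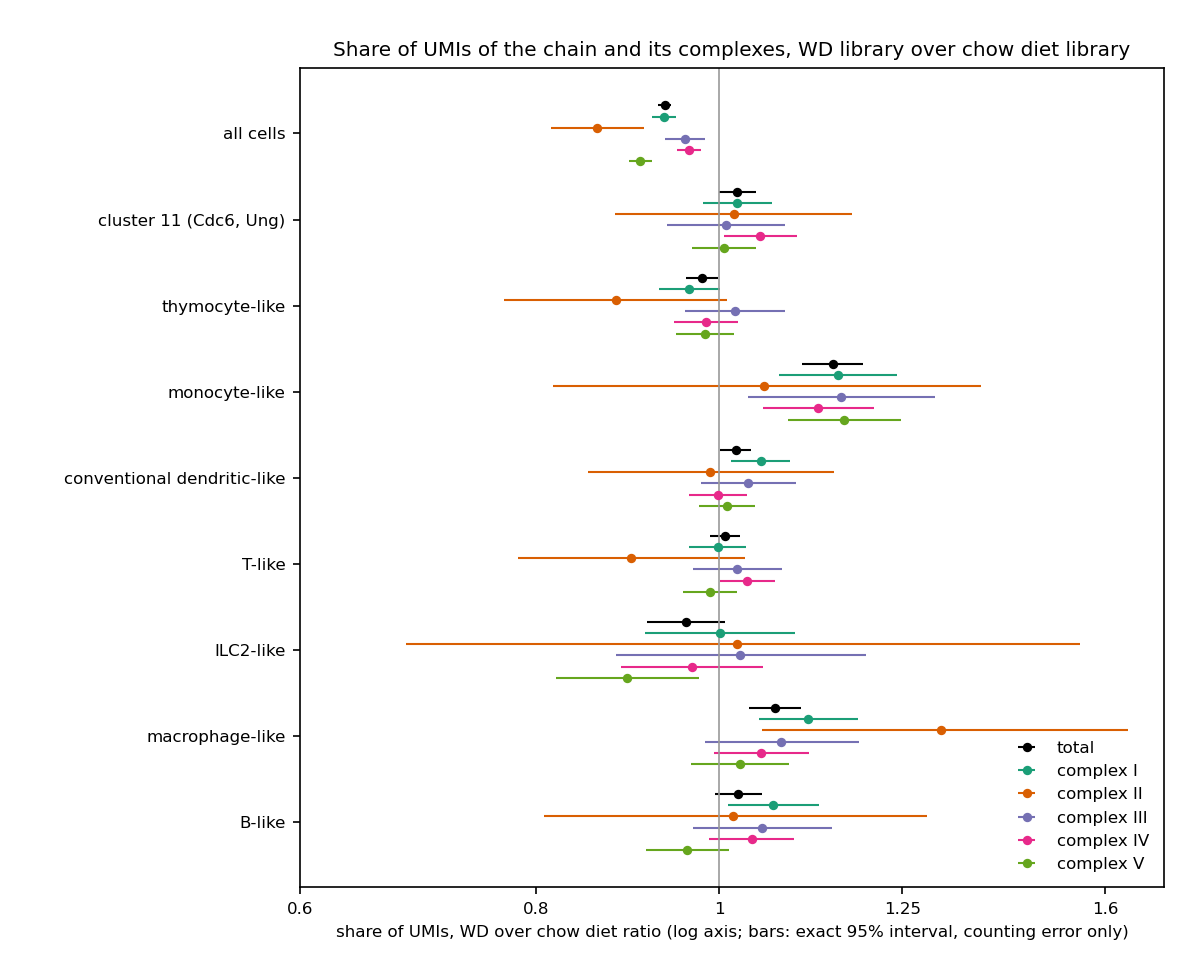
Ratio of the WD to the chow diet library in the share of UMIs on all members (black) and on each complex (colours), over all cells and in 8 classes with at least 30 cells in both libraries, on a log axis with exact 95% intervals for counting error. All cells lie left of 1 for the total and every complex, at 0.936 for the total, while within classes the totals lie between 0.960 in ILC2-like and 1.15 in monocyte-like cells.

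Lists of genes around the chain gave other patterns between diets. In monocyte-like cells the mitochondrially encoded subunits had 5 of 12 measured past the limit higher and 0 lower (median log2 ratio 0.27), with 24.1% and 22.9% the shares of all genes, and glycolysis genes had 6 of 11 higher and 0 lower (0.35). Citrate cycle genes in the same class had 1 of 6 higher and 1 lower. In B-like cells mitochondrial ribosomal protein genes had 24 of 63 higher and 5 lower (median 0.16), against 17.9% and 19.8% of all genes, and their summed share had a ratio of 1.13 (1.06 to 1.2), whereas the members had 1.02. In macrophage-like cells 22 of 59 mitochondrial ribosomal protein genes were higher and 8 lower, and 5 of 16 citrate cycle genes were higher and 1 lower, where 24.3% and 19.6% of all genes were. Over all cells 0 of 16 citrate cycle genes were higher and 4 lower, beside 12.2% and 22% of all genes. The assembly factors were sparse: of 13 for complex I, 6 could be measured in T-like cells, with 3 higher and 1 lower beside 16.9% and 17.8% of all genes, and none in monocyte-like cells.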

How the data were processed

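Single-cell RNA-seq of sorted aortic leukocytes was analysed, with 1 library per diet and 10 pooled aortas in each. The deposited matrices hold counts of UMIs per gene and barcode, made by the authors with Cell Ranger and STAR against mm10, per the submitters' processing notes. Their versions, and the counting of reads shared with processed copies of a gene, are not stated there. The members and lists were chosen with earlier results of these data known. Barcodes with under 200 genes or over 10% mitochondrial UMIs, and doublets called in each library with Scrublet, were left out. Cells were brought to 10000 UMIs each and logged, and 2000 variable genes, 30 components, 15 neighbours and Leiden resolution 1.0 gave the clusters (scanpy 1.11.5). Clusters were named by the rule given with the classes.

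UMIs were summed per class and library. Shares have exact binomial (Clopper-Pearson), CPM exact Poisson and ratios exact conditional 95% intervals, which cover counting error only (UMIs were collapsed by the authors). Log2 ratios add 0.5 UMI, scaled to the totals compared. Diet ratios use classes with 30 cells in both libraries, class ratios those with 15. Genes needed 30 UMIs, over both libraries in the class for diet ratios and in each library for class ratios. Scripts were tested on simulated data. Named genes were the 3 with most UMIs per complex, members past 2-fold in a class, extremes of the diet ratio, tissue forms and core subunits of complex I. A member is not reported by name here and not drawn. Further members were named from the counts after their values were seen. The scoring of clusters, the minimum of 15 cells, equal cluster weights, the 1.5-fold rule within the chain, the comparison across clusters, the motifs and the promoters shown were also chosen after seeing the data. Alternatives were filters, clustering, denominators, thinning, thresholds and leaving out clusters or members, computed for the totals, complexes, counts and a subset of the named genes.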

Additional observations from a re-analysis of the deposited data

Results flagged for a closer look

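The share of UMIs on the chain was lower with WD in thymocyte-like cells (ratio 0.979) and higher in conventional dendritic-like (1.02), macrophage-like (1.07) and monocyte-like cells (1.15), with counting intervals on opposite sides of 1. The difference between these classes was not tested, since each diet has 1 library. With cells thinned to 1000 UMIs thymocyte-like cells stood at 1.03 and conventional dendritic-like cells at 0.996, and thymocyte-like cells were above 1 under 5 of 9 alternatives.

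The barcodes left out for over 10% mitochondrial UMIs, 11 with chow diet and 16 with WD, also carried members, at 1.19% (1.05 to 1.34%) and 1.21% (1.09 to 1.34%) of their UMIs. This is below the 2.12% and 1.99% of the kept cells. Over 10% of the UMIs of each such barcode are mitochondrial, and the part of this in the lower share was not tested.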

How the results depend on the processing

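No paired analysis was possible because each diet has 1 library. Some alternatives turned the total over all cells past 1: an equal cluster mix, added after seeing the data (1.02, with complex I 1.03, II 0.977, III 1.04, IV 1.03, V 1.01), and leaving out clusters rich in Dntt (1.01). As a mean over cells it was 0.946 (complex I 0.952), and without the 5 members with most UMIs 0.928. Thinning to 1000 UMIs, which keeps fewer molecules, gave complex I 0.954 and complex II 0.981 over all cells, and totals of 0.992 in B-like, 1.08 in cluster 11, 0.996 in conventional dendritic-like, 1.02 in macrophage-like, 1.03 in monocyte-like and 1.03 in thymocyte-like cells. Thymocyte-like cells also had 1.01 as a mean over cells, 1.01 at resolution 0.5, 1.02 with 1000 variable genes and 1.01 without doublet removal. B-like cells had 1.07 at a mitochondrial limit of 5% and 1.06 without doublet removal. Cluster 11 had 1.05 without ribosomal protein genes. Where values moved under another clustering, the classes also held other cells, and the cause was not tested.

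Counts of members past the limits for diet moved as follows. After thinning they were 0 higher and 6 lower over all cells, 13 lower in B-like, 15 higher in T-like, 7 lower in macrophage-like and 8 higher in monocyte-like cells. With at least 100 UMIs they were 0 higher over all cells and 13 higher in monocyte-like cells. Past 1.5-fold they were 1 lower over all cells, 4 higher and 0 lower in B-like, 0 and 0 in T-like, 5 and 0 in macrophage-like and 7 and 0 in monocyte-like cells. Without ribosomal protein genes 5 were lower in monocyte-like cells. With a limit of 5%, B-like cells had 3 lower and T-like cells 1. T-like cells also had 1 lower at resolution 0.5, with 1000 variable genes and without doublet removal, where B-like cells had 4 lower. Of the values compared, 468 stayed within their counting interval or 1.5 times the count and 87 moved. Genes at 0 in a library after thinning gave no ratio. With 35 cells, the monocyte-like class limits what depth can show.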

Other observations

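The cytochrome c and carrier genes (Cycs, which carries electrons from complex III to IV, Slc25a3, the phosphate carrier, the ADP/ATP exchangers Slc25a4 and Slc25a5, and 3 Vdac outer membrane channels) took 0.432% and 0.437% of UMIs in cluster 11, 0.316% and 0.304% in thymocyte-like cells and 0.131% and 0.136% in B-like cells. Glycolysis genes took 0.548% and 0.499% in cluster 11, 0.372% and 0.459% in monocyte-like cells, where the ratio of WD to chow diet was 1.23 (1.13 to 1.34), and 0.173% and 0.170% in B-like cells. Monocyte-like cells stood nearer to cluster 11 in glycolysis genes than in the members.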
